A study of Mus musculus with 19 samples.

Results

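The 43 genes described here act when a cell divides its chromosomes. They were listed by name and all 43 were found among the 20408 genes of the table, and all 43 were among the 14845 genes with enough reads to be tested. RNA from the suprarenal abdominal aorta (SRA), the segment just above the renal arteries, was sequenced from 19 male mice, 8 weeks old at the start of the protocol, 24 h after an osmotic pump began to deliver angiotensin II (Ang II) or saline. All mice were ApoE-/- (hyperlipidemic) on a C57BL/6 background, carried the tamoxifen-activated Cre recombinase SMA-CreERT2, driven by the smooth muscle promoter of Acta2, and received tamoxifen. The IKKβ-/- mice (SMA-CreERT2 Ikkβ Flox/Flox ApoE-/-) lose the kinase IKKβ where this Cre is active, while their other cells, such as endothelium and blood cells, keep the gene. Their littermates without the floxed allele (SMA-CreERT2 ApoE-/-) are called IKKβ+/+. There were 10 IKKβ+/+ mice, 5 given Ang II and 5 saline, and 9 IKKβ-/- mice, 5 given Ang II and 4 saline, and the Ang II dose is 500 to 1000 ng/min/kg in the labels and 1000 in the study's methods. The comparisons ask how the mitosis genes stood after a day of Ang II, and whether that depended on IKKβ in smooth muscle cells.

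A dividing cell first copies its DNA and then, in mitosis, condenses the chromosomes, attaches them to a spindle of microtubules, pulls the copies apart and splits into daughter cells. Cyclins A and B switch on the kinase Cdk1, a checkpoint at the kinetochores (the protein plates that hold the chromosomes to the spindle) keeps the cell waiting until every chromosome is attached, and the anaphase-promoting complex then destroys the cyclins. Most of these genes are transcribed together late in the cycle and are almost silent in resting cells. Smooth muscle cells of a healthy adult aorta rarely divide, so their messages are scarce in whole aorta. In RNA from whole tissue, fewer dividing cells and less message per dividing cell cannot be told apart.

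Many promoters of this class are known to hold a CCAAT box and a cell cycle homology region (CHR), a short element near the start site that is bound by the DREAM complex in resting cells. The stretches before the start sites of 5 of the genes whose values are given below are shown to let both elements be seen. They were read from RefSeq promoters of GRCm38.p6, run 5′ to 3′ toward the gene on its own strand and end before the start in both RefSeq and Gencode. Capitals mark CCAAT (or ATTGG, its reverse complement) and the CHR, searched as TTTGAA (or TTCAAA) and TTCGAA. No 2 of the marked elements overlap.
Mki67 (chr7:135716380-135716629, minus strand): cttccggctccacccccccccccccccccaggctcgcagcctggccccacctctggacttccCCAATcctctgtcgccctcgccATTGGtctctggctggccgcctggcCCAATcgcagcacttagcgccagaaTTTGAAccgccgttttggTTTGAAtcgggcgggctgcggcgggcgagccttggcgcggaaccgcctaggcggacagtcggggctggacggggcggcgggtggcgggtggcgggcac
Top2a (chr11:99024190-99024439, minus strand): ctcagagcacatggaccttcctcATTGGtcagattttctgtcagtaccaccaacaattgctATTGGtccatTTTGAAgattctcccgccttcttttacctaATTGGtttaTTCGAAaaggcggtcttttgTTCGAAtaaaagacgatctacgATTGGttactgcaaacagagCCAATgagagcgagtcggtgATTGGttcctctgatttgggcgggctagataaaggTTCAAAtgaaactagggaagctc
Cdk1 (chr10:69352939-69353162, minus strand): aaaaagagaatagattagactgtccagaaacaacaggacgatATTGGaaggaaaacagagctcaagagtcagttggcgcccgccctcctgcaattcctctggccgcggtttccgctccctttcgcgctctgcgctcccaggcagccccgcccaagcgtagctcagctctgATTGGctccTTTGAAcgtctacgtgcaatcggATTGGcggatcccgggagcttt
Cenpf (chr1:189688087-189688336, minus strand): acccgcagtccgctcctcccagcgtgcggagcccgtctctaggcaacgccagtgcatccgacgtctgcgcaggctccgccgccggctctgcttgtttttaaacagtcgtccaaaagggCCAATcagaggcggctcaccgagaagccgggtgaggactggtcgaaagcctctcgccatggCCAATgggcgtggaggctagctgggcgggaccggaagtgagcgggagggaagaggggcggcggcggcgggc
Nusap1 (chr2:119618048-119618297, plus strand): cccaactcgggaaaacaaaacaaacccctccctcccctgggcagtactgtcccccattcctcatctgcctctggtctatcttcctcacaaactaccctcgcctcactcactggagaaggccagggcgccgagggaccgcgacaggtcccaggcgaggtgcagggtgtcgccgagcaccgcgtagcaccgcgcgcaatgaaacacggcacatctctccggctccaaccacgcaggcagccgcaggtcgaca

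The Mki67 stretch held 3 CCAAT boxes, beginning 188, 166 and 141 bases before the RefSeq start, and 2 CHR matches at 116 and 98 bases. Top2a had the densest set, with 6 CCAAT boxes and 4 CHR matches. Cdk1 held 3 CCAAT boxes and 1 CHR match at 71 bases, with a further match outside the bases shown. In Cenpf there were 2 CCAAT boxes, at 132 and 71 bases, and its 1 CHR match in the 300 bases lay after the start. Nusap1 held neither element in these letters. Promoters of 300 bases (250 before the start and 50 after it) were found for 38 of the 43 genes, in 40 entries. No entry was found for Ccna2, Aurkb, Kif20a, Tpx2 and Smc4. A CCAAT box was present in 75% of the 40 entries against 37.4% of all 32851 promoters, a CHR in 82.5% against 19.2%, and both in 70% against 7.52%. These shares describe the letters of the promoters and no binding was measured.

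The libraries held 11382573 to 19906694 reads on genes. Values are normalized counts, that is reads after division by a size factor for the depth of the library. The mitosis genes were scarce at this depth. The size of each transcript is taken out in TPM (a level per length of transcript) and the levels of the mitosis genes are compared with each other on that scale, averaged over the 19 mice. Smc4 (41.7 TPM) and Smc2 (9.22 TPM), which form the core shared by both condensin complexes, and Anln (29.6 TPM), the actin-binding scaffold of the contractile ring, were the most abundant on this scale. Mki67, whose product Ki-67 coats mitotic chromosomes and is the usual stain for dividing cells, had 2.27 TPM. Cdk1 had 0.967, Ccnb1 0.2996 and Kif15 0.186 TPM, and Kif15 was the lowest of the 43. No group had 3 or fewer reads in every mouse for any of these genes. All 8 smooth muscle, 9 endothelial, 7 fibroblast and 13 leukocyte markers were in the table. Of 9 neutrophil and marrow genes 5 had a row, while Mpo, Elane and Ly6g had none. Of 5 mesothelial genes 3 had a row, without Msln, and 6 of the 7 adrenal cortex genes had none. The summed level of the 5 neutrophil and marrow genes was 526 normalized counts in X2380, an Ang II-treated IKKβ-/- mouse, and 9.56 to 286 in the other mice. That of 7 erythroid genes was 4980 in X2380 and 98.4 to 3610 in the others. The part of these cells in the levels of the mitosis genes was not tested. Ikbkb, the gene deleted in smooth muscle, had 673 ± 78.6 (SD, n = 5) and 726 ± 46.3 (SD, n = 5) normalized counts in saline-infused and Ang II-treated IKKβ+/+ mice, and 515 ± 74.3 (SD, n = 4) and 548 ± 87.9 (SD, n = 5) in the corresponding IKKβ-/- mice.

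One library stood apart. Mouse X2409, a saline-infused IKKβ-/- mouse, was the lowest of its group of 4 for 31 of the 43 genes. Its mean log2(normalized count + 1) over the 43 genes was 3.82, against 5.19 to 5.31 in the other 3 mice of the group and 3.26 to 4.43 in the Ang II-treated IKKβ-/- mice. It lay at or below the highest Ang II-treated IKKβ-/- mouse for 36 of the 43 genes. Counts of calls and medians that use this group, and the averaged changes of the genes given mouse by mouse that passed, are therefore also given without X2409. As X2409 was picked for its low values in these same genes, leaving it out tends to enlarge the falls and is no independent check. Over all 27 alternatives described with the methods, the averaged log2 fold change ran from -1.86 to -1.59 for Mki67 and from -2.86 to -2.10 for Cenpf. For Prc1 it ran from -1.58 to -1.21. The mouse numbers ran in a separate block for each group and no batch is named, so any batch effect cannot be told apart from the treatment and genotype.

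**Figure D1:**
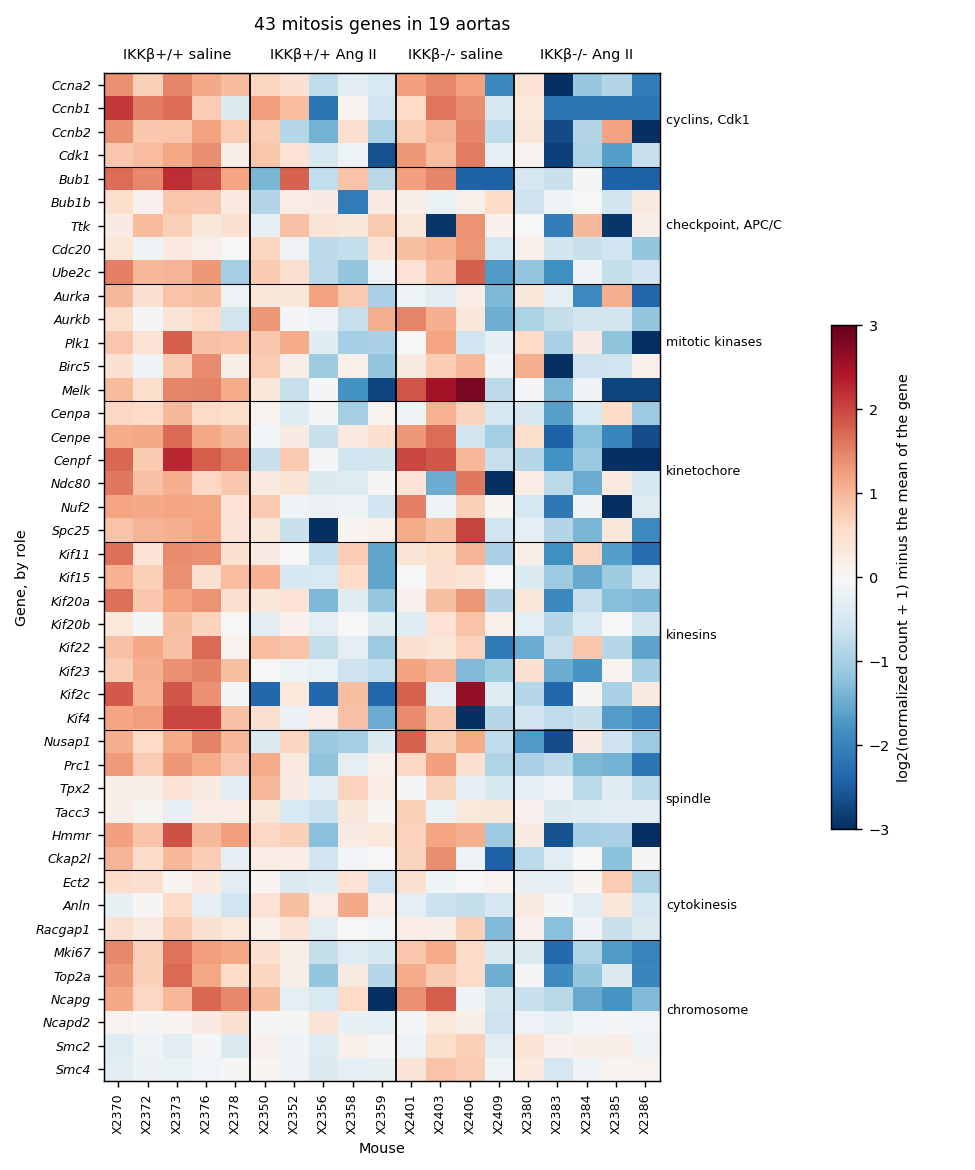
Each row is 1 of the 43 mitosis genes, ordered by role, and each column 1 of the 19 mice; color gives log2(normalized count + 1) after subtraction of the gene's mean across the 19 (red higher, blue lower). The saline-infused IKKβ+/+ mice are mostly red and the Ang II-treated IKKβ-/- mice mostly blue, X2409 is blue among its group of 4, and Anln, Smc2, Smc4 and Ncapd2 stay pale.

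The mitosis genes were lower after Ang II. Averaged over both genotypes, 41 of the 43 genes had a negative log2 fold change, with a median of -1.08, while the median over all 14845 genes tested was 0.01. In this comparison 23 of the 43 genes fell and 1, Anln, rose (limma, Benjamini-Hochberg adjusted p under 0.1 over all genes tested and fold change above 1.2), where 7.05% of all genes tested fell and 5.66% rose. Of the 23, 20 fell by more than 1 on the log2 scale. Leaving out each mouse in turn kept the number of falling genes between 20 and 28, with 28 falling and 1 rising, and a median of -1.16, without X2409, where 6.86% of all genes tested fell.

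Mki67 (ENSMUSG00000031004.8, chromosome 7, 135689784 to 135716361, GRCm38, positions from Gencode M21 here and below) gave the smallest p. Its normalized counts, here and below in the order of the mouse numbers, were 218, 133, 248, 191 and 179 in saline-infused and 112, 90.7, 48.3, 61.1 and 56.7 in Ang II-treated IKKβ+/+ mice. The IKKβ-/- mice had 141, 175, 119 and 58.8 with saline and 59.1, 15.1, 42.3, 24.1 and 19.3 with Ang II. The groups of IKKβ+/+ mice did not overlap, whereas in IKKβ-/- mice X2409, at 58.8, lay just under the highest Ang II-treated mouse at 59.1. The averaged log2 fold change was -1.70 ± 0.25 (SE, limma adjusted p = 0.00045, and a change of -1.86 without X2409).

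Cdk1 and its cyclins fell, 4 of 4 genes. Cdk1 (ENSMUSG00000019942.13, chromosome 10, 69335146 to 69352938), the kinase that starts mitosis, had 30.6, 33.4, 39.6, 46.5 and 19.9 normalized counts in saline-infused and 31.1, 23.5, 12.1, 15.3 and 1.99 in Ang II-treated IKKβ+/+ mice. With saline the IKKβ-/- mice had 43.4, 33.7, 52.2 and 13.8, and with Ang II 18.5, 1.59, 8.45, 4.82 and 10.3. The groups overlapped in both genotypes, in IKKβ-/- mice through X2409 at 13.8 and X2380 at 18.5. The averaged log2 fold change of Cdk1 was -1.68 ± 0.43 (SE, limma adjusted p = 0.0179, and a change of -1.87 without X2409). Ccnb1 (ENSMUSG00000041431.16, chromosome 13, 100778650 to 100786570), cyclin B1, the partner that activates Cdk1, had 18.6, 11.9, 13.2, 6.65 and 2.39 normalized counts with saline and 9.64, 7.47, 0, 3.82 and 1.99 with Ang II in IKKβ+/+ mice. The IKKβ-/- mice had 5.79, 12.6, 10.8 and 2.18 with saline, and of the Ang II-treated mice 4 were at 0 and X2380 at 4.62, which is 5 reads. Its averaged log2 fold change was -1.84 ± 0.53 (SE, limma adjusted p = 0.035, and a change of -2.05 without X2409), and -1.01 with a pseudocount of 4 in place of 1. An annotated pseudogene, Ccnb1-ps, could share its reads, and the same holds for Ccnb2, Kif22 and Kif4. Ccna2 (cyclin A2) and Ccnb2 (cyclin B2) fell by 1.57 and 1.55 on the log2 scale (limma adjusted p = 0.0361 and 0.0701). Ccnb2 passed in 16 of 27 alternatives.

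Kinetochore genes fell in 5 of 6 cases. Cenpf (ENSMUSG00000026605.14, chromosome 1, 189640606 to 189688086), a large protein of the outer kinetochore, had 66.5, 34.1, 96.9, 70.3 and 58.98 normalized counts in saline-infused and 11.8, 34.2, 18.6, 12.4 and 12.9 in Ang II-treated IKKβ+/+ mice. Counts of Cenpf in IKKβ-/- mice were 81.1, 72.7, 39.6 and 11.6 with saline and 10.2, 4.76, 8.45, 0 and 1.29 with Ang II. There the groups did not overlap even with X2409 included, and in IKKβ+/+ mice they overlapped between X2372 at 34.1 and X2352 at 34.2. Its averaged log2 fold change was -2.57 ± 0.44 (SE, limma adjusted p = 0.00124, and a change of -2.86 without X2409). Cenpe (ENSMUSG00000045328.11, chromosome 3, 135212537 to 135273611), a kinesin motor at the kinetochore, had 47.9, 49.2, 72.2, 49.4 and 43.04 normalized counts with saline and 20.4, 25.6, 13.2, 26.8 and 30.8 with Ang II in IKKβ+/+ mice. The IKKβ-/- mice had 55.01, 71.6, 14.4 and 10.2 with saline and 31.4, 3.17, 8.45, 4.82 and 2.57 with Ang II. Its IKKβ+/+ groups did not overlap, and in IKKβ-/- mice X2380, at 31.4, lay above 2 of the saline-infused mice. The averaged change was -1.54 ± 0.40 (SE, limma adjusted p = 0.0208, and a change of -1.77 without X2409). Nuf2 and Spc25, subunits of the Ndc80 complex that grips microtubules, fell by 1.51 and 1.68, and Cenpa, the histone variant of the centromere, by 0.89. Ndc80 itself, at -0.41 ± 0.47 (SE), did not pass (limma adjusted p = 0.64).

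Spindle and midzone genes were split. Prc1 (ENSMUSG00000038943.16, chromosome 7, 80294450 to 80316259), which bundles microtubules between the separating chromosomes, had 109, 76.2, 112, 97.8 and 78.1 normalized counts in saline-infused and 97.5, 54.4, 18.6, 36.3 and 49.7 in Ang II-treated IKKβ+/+ mice. Without IKKβ the values were 68.5, 106, 61.2 and 23.2 with saline and 22.2, 25.4, 16.9, 16.1 and 9 with Ang II. The highest Ang II-treated IKKβ+/+ mouse, X2350 at 97.5, lay among the saline-infused mice, and in IKKβ-/- mice X2409, at 23.2, lay below X2383 at 25.4. Prc1 changed by -1.37 ± 0.29 (SE, limma adjusted p = 0.00609, and a change of -1.58 without X2409). Nusap1 (ENSMUSG00000027306.15, chromosome 2, 119618298 to 119651244), a microtubule-binding protein of the spindle, had 43.9, 30.96, 44.9, 58.9 and 41.4 normalized counts with saline and 14.99, 32.02, 8.78, 9.55 and 14.9 with Ang II in IKKβ+/+ mice. Nusap1 in IKKβ-/- mice stood at 71.4, 33.7, 45.04 and 11.6 with saline and 5.54, 2.38, 24.3, 12.8 and 9 with Ang II. The IKKβ+/+ groups overlapped by 1 mouse on each side, X2372 at 31.0 and X2352 at 32.02. The averaged change of Nusap1 was -1.69 ± 0.37 (SE, limma adjusted p = 0.007, and a change of -1.94 without X2409), and Hmmr, another spindle protein, fell by 1.66. Tpx2, which activates Aurora A on the spindle, was at -0.12 ± 0.18 (SE), Tacc3 at -0.36 ± 0.16 (SE) and Ckap2l at -0.50 ± 0.37 (SE), and none of these 3 passed.

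Of the 8 kinesins, motor proteins that act on microtubules, 6 fell. Kif20a (ENSMUSG00000003779.16, chromosome 18, 34624613 to 34633277), a motor of the spindle midzone, had 67.9, 37.3, 50.2, 55.1 and 30.3 normalized counts in saline-infused and 26.8, 28.8, 7.68, 16.2 and 8.95 in Ang II-treated IKKβ+/+ mice, and these groups did not overlap. For IKKβ-/- mice the counts of Kif20a were 23.2, 40.03, 54.05 and 10.9 with saline and 26.8, 4.76, 12.7, 8.03 and 7.71 with Ang II. There X2380 lay above 2 of the 4 saline-infused mice. The averaged change was -1.43 ± 0.35 (SE, limma adjusted p = 0.0138, and a change of -1.64 without X2409). Kif2c, which takes microtubules apart at the centromere, fell by 2.04, Kif11, the motor that pushes the spindle poles apart, by 1.27, Kif15 by 1.12, Kif23, a subunit of centralspindlin, by 1.07 and Kif20b by 0.63. The chromosome-bound motors Kif4 and Kif22 were at -1.08 ± 0.49 and -0.80 ± 0.43 (SE) and did not pass.

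Among the kinases, Melk (ENSMUSG00000035683.13, chromosome 4, 44300876 to 44364675), a kinase that is made late in the cycle, had 11.98, 8.73, 17.6, 18.04 and 13.6 normalized counts with saline and 7.5, 3.2, 5.48, 0.96 and 0 with Ang II in IKKβ+/+ mice, and these groups did not overlap. In the IKKβ-/- genotype Melk had 24.1, 36.9, 46.8 and 2.9 with saline and 5.54, 1.59, 5.28, 0 and 0 with Ang II. X2409, at 2.90, lay among the Ang II-treated IKKβ-/- mice, and the other 3 saline-infused mice lay above them. Melk changed by -2.56 ± 0.54 (SE, limma adjusted p = 0.00611, and a change of -2.95 without X2409). Of the 5 genes in this group it was the 1 that passed. Plk1, at -1.02 ± 0.46, Birc5 (survivin) at -0.98 ± 0.46, Aurkb (Aurora B) at -0.51 ± 0.37 and Aurka (Aurora A) at -0.24 ± 0.42 (all SE) did not, and the interval of Aurka, -1.13 to 0.64, leaves room for a change in either direction. Of the checkpoint genes and the anaphase-promoting complex, Cdc20, its activator, fell by 0.75. Bub1 at -1.22 ± 0.60, Bub1b at -0.67 ± 0.27 and Ttk at -0.31 ± 0.53, the checkpoint kinases, and Ube2c at -1.08 ± 0.43 (all SE), the ubiquitin-conjugating enzyme of the complex, did not pass.

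Top2a (ENSMUSG00000020914.17, chromosome 11, 98992943 to 99024189), the topoisomerase that untangles the copied chromosomes, had 168, 111, 223, 152 and 99.6 normalized counts in saline-infused and 106, 76.8, 29.6, 81.2 and 36.8 in Ang II-treated IKKβ+/+ mice. The IKKβ-/- mice had 147, 118, 101 and 23.9 with saline and 66.5, 17.5, 29.6, 49.8 and 16.7 with Ang II. In IKKβ+/+ mice X2350, at 106, overlapped with X2378, at 99.6. Its averaged change was -1.31 ± 0.34 (SE, limma adjusted p = 0.022, and a change of -1.60 without X2409). Ncapg (ENSMUSG00000015880.13, chromosome 5, 45669919 to 45700546), a subunit of condensin I, had 18.6, 12.7, 16.7, 28.5 and 23.1 normalized counts with saline and 16.1, 6.4, 5.48, 12.4 and 0 with Ang II in IKKβ+/+ mice. Ncapg counts in IKKβ-/- mice were 22.2, 30.6, 7.21 and 5.08 with saline and 4.62, 3.97, 2.11, 1.61 and 2.57 with Ang II, and these groups did not overlap. Ncapg changed by -1.76 ± 0.46 (SE, limma adjusted p = 0.0221, and a change of -1.95 without X2409). Of the rest of condensin, Smc4 was at -0.27 ± 0.12 (SE, limma adjusted p = 0.167), Ncapd2 at -0.15 ± 0.13 (95% interval -0.41 to 0.12) and Smc2 at 0.09 ± 0.13 (95% interval -0.18 to 0.35). Smc2 and Smc4 are also part of condensin II, which stays in the nucleus between divisions.

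**Figure D2:**
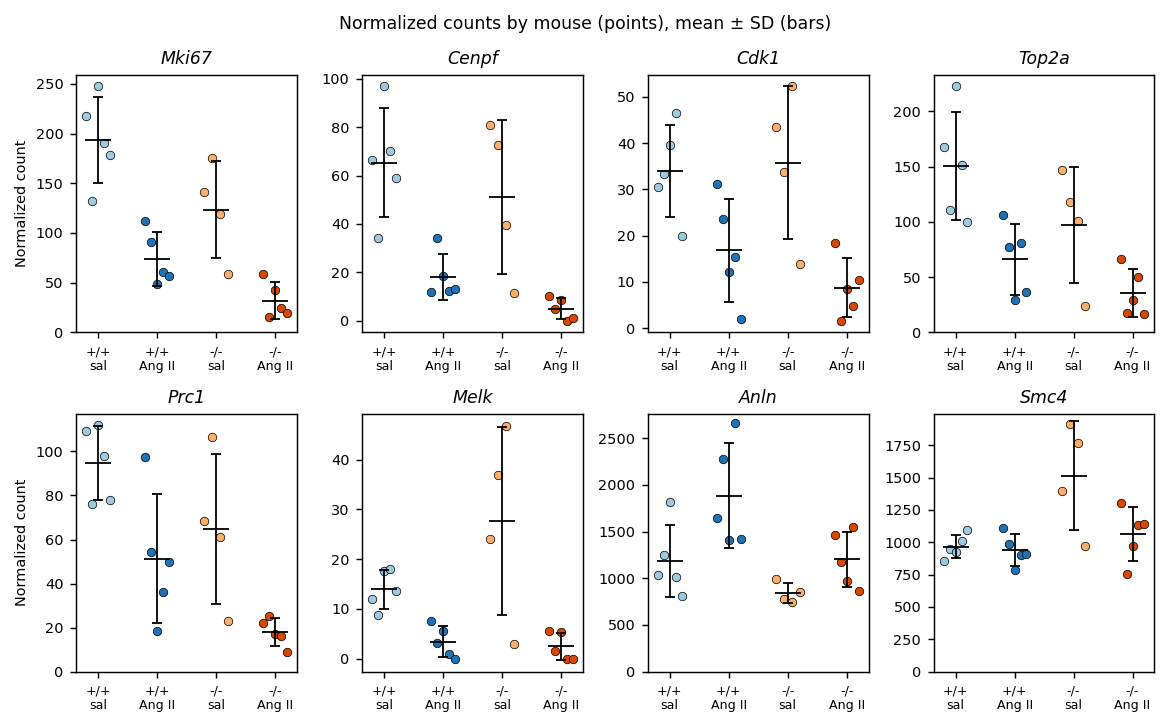
Normalized counts of 8 mitosis genes in each mouse (points) with the mean and SD of each group (bars); sal is saline, +/+ and -/- are the IKKβ genotypes. Mki67, Cenpf, Cdk1, Top2a, Prc1 and Melk are lower with Ang II in both genotypes, Anln is higher, and Smc4 is high in 3 of the 4 saline-infused IKKβ-/- mice.

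Anln was the exception in direction. It is named, like Smc4 below, after its values were seen. Anln (ENSMUSG00000036777.8, chromosome 9, 22332012 to 22389188) had 1034, 1252, 1816, 1018 and 807 normalized counts in saline-infused and 1647, 2271, 1408, 2663 and 1416 in Ang II-treated IKKβ+/+ mice. The IKKβ-/- mice had 996, 777, 744 and 852 with saline and 1457, 1169.9, 966, 1548 and 862 with Ang II. The groups overlapped in both genotypes, through X2373 at 1816 among the saline-infused IKKβ+/+ mice and X2401 at 996 and X2386 at 862 in IKKβ-/- mice. The averaged log2 fold change was 0.58 ± 0.16 (SE, limma adjusted p = 0.025, and a change of 0.58 without X2409). The other cytokinesis genes, Ect2 at -0.31 ± 0.21 and Racgap1 at -0.42 ± 0.23 (SE), which control the contractile ring through RhoA, did not pass.

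In IKKβ+/+ mice alone, 39 of the 43 genes were lower after Ang II, with a median log2 fold change of -1.04, and the median of all genes tested was 0.01. Here 6 genes fell, where 4.33% of all genes tested fell, and 1 rose, where 4.33% rose. The 6 were Mki67 (-1.42 ± 0.35, SE, limma adjusted p = 0.0267), Kif20a (-1.52 ± 0.47, SE), Cenpf (-1.85 ± 0.60, SE), Kif2c (-2.39 ± 0.79, SE), Nusap1 (-1.52 ± 0.50, SE) and Kif23 (-1.45 ± 0.48, SE), and the adjusted p of the last 5 lay between 0.0718 and 0.0909. The gene that rose was Anln, by 0.67 ± 0.21 (SE, limma adjusted p = 0.0756). At an unadjusted p under 0.05, 20 of the 43 were lower, against 9.84% of all genes tested. The groups did not overlap, with Ang II below saline, for 12 of the 43 genes, against 4.47% of all genes tested. The mean log2(normalized count + 1) over the 43 genes was 3.997 (X2356) to 4.91 (X2350) with Ang II and 5.02 (X2378) to 5.67 (X2373) with saline. The number that passed moved with single mice. It was 1 (Mki67) without X2350, X2370 or X2376, 2 without X2358 or X2373 and 3 without X2359, X2372 or X2378, while the median stayed between -1.25 and -0.92 whichever mouse was left out. Calls over all genes tested, in either direction, moved too. There were 1286 with all mice, 428 without X2350 and 1915 without X2356, the lowest and highest for an IKKβ+/+ mouse left out. With only the IKKβ+/+ mice in the fit, 19 fell and 1 rose, where 6.62% of all genes tested fell.

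In IKKβ-/- mice, 41 of the 43 were lower after Ang II and the median was -1.16, against 0.00 over all genes tested. In this genotype 11 genes fell, where 2.69% of all genes tested fell, and none rose, where 2.59% rose. By limma the unadjusted p of 1 rising gene, Anln, was under 0.05, against 8.6% of all genes tested. With the edgeR quasi-likelihood test and DESeq2 on the recovered reads the number that rose was also 0. The 11 were Mki67 (-1.98 ± 0.37, SE, limma adjusted p = 0.008), Cenpf (-3.30 ± 0.64, SE, limma adjusted p = 0.00973), Prc1 (-1.69 ± 0.42, SE, limma adjusted p = 0.0334), Melk (-3.01 ± 0.79, SE, limma adjusted p = 0.0433), Nusap1, Cdk1, Cdc20, Cenpe, Nuf2, Ccnb1 and Hmmr. The changes of the last 7 ran from -2.44 (Ccnb1) to -1.26 (Cdc20). At an unadjusted p under 0.05, 23 were lower, against 9.15% of all genes tested. The groups did not overlap, with Ang II below saline, for 3 of the 43 (Cenpf, Ncapg and Kif15), against 2.88% of all genes tested. X2409 bore on this count, as it was the lowest of its group of 4 for 31 of the 43 genes. Without X2409 the number of falling genes was 18, where 3.28% of all genes tested fell, and the median -1.36, with Mki67 at -2.30, Cenpf at -3.88, Prc1 at -2.11 and Melk at -3.81. Left out in turn, X2401 and X2403 left 3 calls, X2385 and X2406 left 4, X2383 left 5, X2384 left 6, X2386 left 7 and X2380 left 15. The median stayed between -1.36 and -1.01. Calls over all genes tested, in either direction, were 785 with all mice. They ran from 435 without X2406 to 1082 without X2383 when an IKKβ-/- mouse was left out. With only the IKKβ-/- mice in the fit, Mki67 and Cenpf were the 2 that fell, where 1.07% of all genes tested fell.

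**Figure D3:**
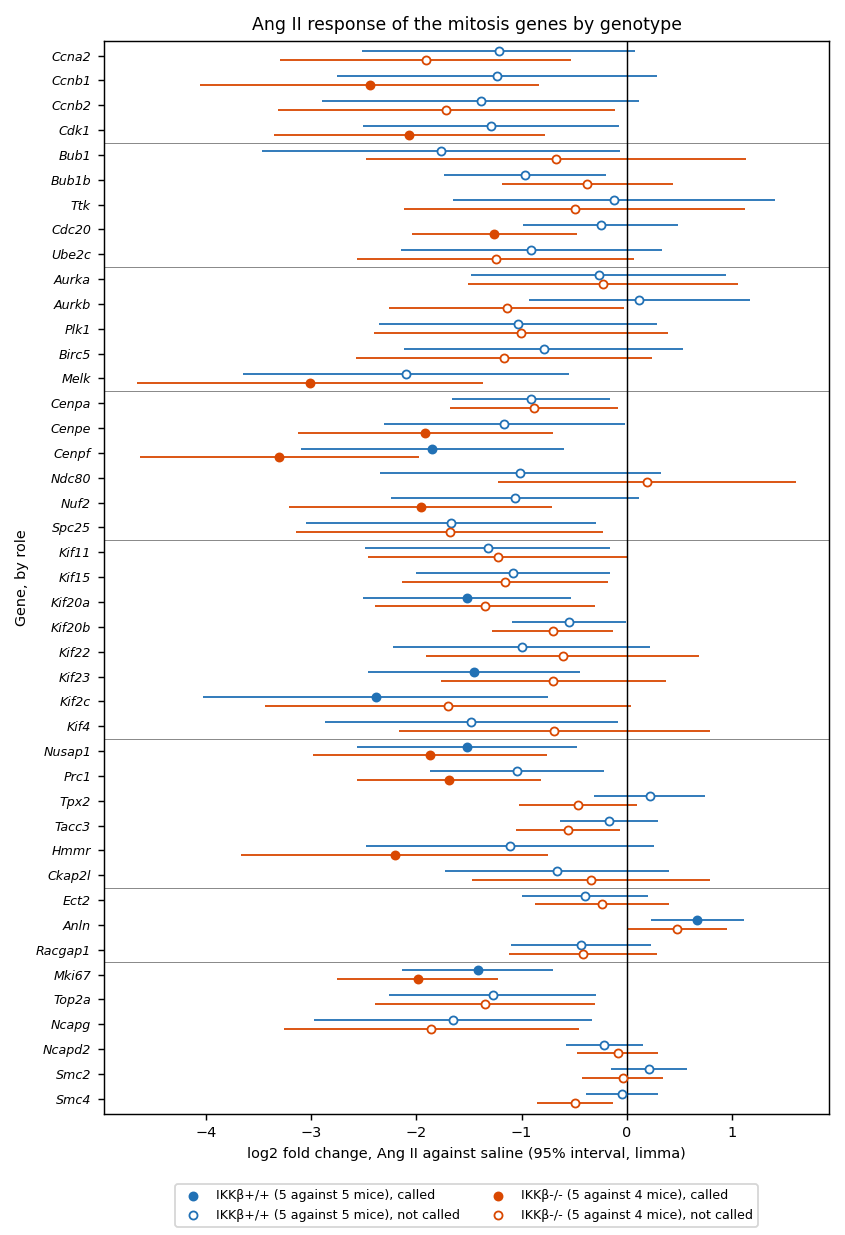
Log2 fold change of each mitosis gene, Ang II against saline, in IKKβ+/+ (blue) and IKKβ-/- (orange) mice with its 95% interval from limma; filled points passed the threshold and the vertical line marks no change. Nearly all points lie left of the line in both genotypes, and the intervals of the genotypes overlap for every gene.

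The 2 genotypes share no mice, so their responses can be set side by side. Of the 43 genes 38 (88.4%) were lower with Ang II in both, and of all genes tested 29.2% were. Mki67, Cenpf and Nusap1 were called lower in both genotypes. How often genes in general were called in both was not counted, so nothing is read from this overlap. Whether the response differed was tested as an interaction. None of the 43 genes passed this test, and 0 of the 43 reached an unadjusted p under 0.05, where 0% of all genes tested passed and 11.1% reached an unadjusted p under 0.05. The edgeR and DESeq2 counts were also 0, where DESeq2 called 1.88% of all genes it tested. The median difference (the response in IKKβ-/- minus that in IKKβ+/+ mice) was -0.20. The smallest p-values belonged to Cdc20, with a difference of -1.01 ± 0.52 (SE, 95% interval -2.09 to 0.07, limma adjusted p = 0.472), Smc4, with -0.45 ± 0.24 (SE, -0.94 to 0.05, limma adjusted p = 0.485), and Tpx2, with -0.68 ± 0.37 (SE, -1.45 to 0.09, limma adjusted p = 0.491). For Mki67 the difference was -0.57 ± 0.50 (SE, 95% interval -1.62 to 0.49), and for Cenpf -1.46 ± 0.87 (SE, -3.28 to 0.37), so differences of more than 2-fold in either gene lie within the intervals. Without X2409 the median difference was -0.45 and the count of genes passing was again 0. A difference between the genotypes in the fall of these genes was not detectable in this design, and the wide intervals do not show that the responses were alike.

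Between the genotypes with saline, 37 of the 43 genes were lower in IKKβ-/- mice, with a median of -0.48, but without X2409 the median was -0.10. No gene was called lower, where 2.07% of all genes tested were, with limma, edgeR or DESeq2, and 4 of the 43 were lower at an unadjusted p under 0.05 with limma, close to the 9.24% of all genes tested. Smc4 (ENSMUSG00000034349.14, chromosome 3, 69004738 to 69034623), the 1 gene called, was higher, where 3.4% of all genes tested were. Its normalized counts were 852, 949.6, 927, 1008 and 1095 in saline-infused IKKβ+/+ and 1399, 1914, 1767 and 974 in saline-infused IKKβ-/- mice, and 1114, 985, 787, 903 and 912 and 1306, 754, 969, 1137 and 1138 with Ang II. X2409, at 974, lay within the range of the IKKβ+/+ mice, and the other 3 lay above it. The difference was 0.61 ± 0.17 (SE, limma adjusted p = 0.0735), and 0.80 without X2409. It did not pass when any 1 of X2370, X2372, X2373, X2376, X2401, X2403 or X2406 was left out (without X2401 Kif4 was called lower), and without X2409 Smc2 passed too. Next in order of p were Kif4, at -1.89 ± 0.71 (SE, limma adjusted p = 0.15), and Bub1, at -2.23 ± 0.87 (SE, limma adjusted p = 0.165). Leukocyte markers were lower in the same comparison, 9 of 9 tested with a median of -0.86. Of these, 4 passed (Laptm5, Ptprc, Cd68 and Adgre1), where 2.07% of all genes tested were called lower. The groups did not overlap for 7 of the 9, and 606 of all 14845 genes tested were lower without overlap. The part of leukocytes in the levels of the mitosis genes was not tested.

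With Ang II, 38 of the 43 were lower in IKKβ-/- than in IKKβ+/+ mice, with a median of -0.70. None passed with limma, where 0.128% of all genes tested did, and none with edgeR, while DESeq2 called 4 (Mki67, Cenpf, Prc1 and Tpx2) as lower, where it called 2.47% of all genes it tested as lower. At an unadjusted p under 0.05, 11 were lower, against 8.36% of all genes tested. The smallest p-values belonged to Mki67, with -1.29 ± 0.35 (SE, limma adjusted p = 0.162), Prc1, with -1.35 ± 0.40 (SE, limma adjusted p = 0.177), and Cenpf, with -2.04 ± 0.60 (SE, limma adjusted p = 0.177). Without X2380, the highest of the Ang II-treated IKKβ-/- mice for 21 of the 43 genes, 4 genes passed (Mki67, Cenpf, Cenpe and Hmmr), where 1.37% of all genes tested were called lower. Without X2356 3 passed (Mki67, Prc1 and Tpx2), where 2.5% were called lower. The mean level over the 43 genes ran from 3.997 to 4.91 in Ang II-treated IKKβ+/+ and from 3.26 to 4.43 in Ang II-treated IKKβ-/- mice, and these ranges overlap. The mice of this comparison also enter the Ang II comparisons above.

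**Figure D4:**
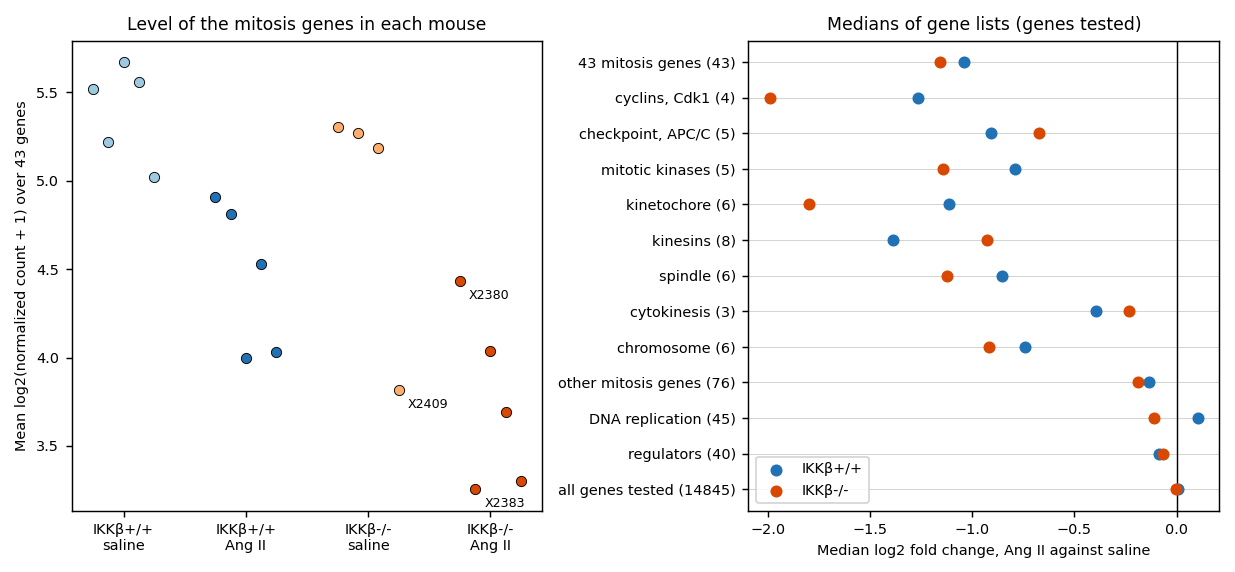
Left, the mean of log2(normalized count + 1) over the 43 mitosis genes in each mouse by group; right, the median log2 fold change (Ang II against saline) of the 43 genes, of their role groups, of other cell cycle lists and of all genes tested in IKKβ+/+ (blue) and IKKβ-/- (orange) mice, with the number of genes tested in brackets. All 5 Ang II-treated IKKβ+/+ mice lie below the 5 saline-infused ones, X2409 lies among the Ang II-treated mice, and the other cell cycle lists and all genes have medians near 0.

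Other lists of cell cycle genes had medians near 0. Of 76 other mitosis genes tested (further kinetochore, spindle and condensin genes, and subunits of the anaphase-promoting complex, which cells outside division also use), 10 fell and 1 rose in the averaged comparison, where 7.05% of all genes tested fell and 5.66% rose, with a median of -0.15 and Cenpq as the gene that rose. The 5 with the smallest p were Nek2, a centrosome kinase (-1.65 ± 0.35, SE), Pbk, a mitotic kinase (-2.85 ± 0.60, SE), Knl1, a kinetochore scaffold (-1.97 ± 0.50, SE), Cdca3 (-1.77 ± 0.46, SE) and Iqgap3 (-2.16 ± 0.58, SE). In IKKβ+/+ mice 2 of the 76 fell, Nek2 and Ska2, where 4.33% of all genes tested fell, and in IKKβ-/- mice 7 did, where 2.69% fell, among them Pbk (-3.66 ± 0.88, SE), Cdca3 (-2.71 ± 0.67, SE), Cep55 and Aspm. Pbk had 32.6, 31.8, 37.9, 25.6 and 25.5 normalized counts in saline-infused and 27.9, 10.7, 0, 11.5 and 4.97 in Ang II-treated IKKβ+/+ mice, and 37.6, 31.6, 46.8 and 5.81 and 14.8, 0, 1.06, 0 and 0 in IKKβ-/- mice.

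Of 45 DNA replication genes tested, 2 rose and none fell in the averaged comparison, where 5.66% of all genes tested rose and 7.05% fell. The median of the 45 was 0.01. The 2 were Mcm7, a subunit of the replicative helicase (0.43 ± 0.12, SE), and Dnmt1, which copies DNA methylation (0.32 ± 0.11, SE). By limma 2 of the 45 were lower at an unadjusted p under 0.05, against 12.4% of all genes tested, and 6 higher, against 12.3%. In IKKβ+/+ mice Rpa1 (0.53 ± 0.14, SE), which coats single-stranded DNA, and Pcna (0.37 ± 0.11, SE), the sliding clamp, rose, where 4.33% of all genes tested rose. In IKKβ-/- mice Mcm7 rose (0.75 ± 0.18, SE), where 2.59% of all genes tested rose. Of 40 regulators of cell cycle entry and exit tested, 3 fell and 1 rose in the averaged comparison, where 7.05% of all genes tested fell and 5.66% rose. Ccnd2, cyclin D2, which carries cells toward replication, fell by 0.51 (limma adjusted p = 0.000326), with 5696 ± 546 (SD, n = 5) and 4139 ± 329.7 (SD, n = 5) normalized counts in saline-infused and Ang II-treated IKKβ+/+ mice and 6352 ± 516 (SD, n = 4) and 4309 ± 459 (SD, n = 5) in IKKβ-/- mice. Its saline-infused and Ang II-treated mice did not overlap in either genotype. Cdkn1a, the Cdk inhibitor p21, had 1096, 1177, 958, 718 and 609 normalized counts with saline and 3243, 1374, 1385, 2282 and 1341 with Ang II in IKKβ+/+ mice, and rose there by 1.02 ± 0.24 (SE, limma adjusted p = 0.0204) without overlap. Its change in IKKβ-/- mice was 0.42 ± 0.25 (SE, limma adjusted p = 0.415), and the difference between the genotypes was -0.61 ± 0.35 (SE, limma adjusted p = 0.508). Wee1, the kinase that holds Cdk1 inactive, had 451 ± 64.7 (SD, n = 4) normalized counts in saline-infused and 145 ± 55.9 (SD, n = 5) in Ang II-treated IKKβ-/- mice and fell there by 1.70. In IKKβ+/+ mice it had 199 ± 118 (SD, n = 5) and 154 ± 35.9 (SD, n = 5). Cdk6 was the other regulator that fell.

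The promoter elements were counted in the genes that fell and in the others. Both elements stood in the promoters of 13 of the 21 falling genes with an entry and in 13 of the 17 others, and the median averaged log2 fold change was -1.08 for the 26 genes with both and -1.32 for the other 12. Birc5, Melk, Nuf2, Nusap1 and Tacc3 had neither element in the 300 bases.

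Some cell type markers moved with the treatment. In IKKβ+/+ mice 1 of 9 endothelial markers (Tek) and 1 of 7 fibroblast markers (Lum) fell, where 4.33% of all genes tested fell. Of the 9 endothelial markers 6 were lower and 3 higher, and all 7 fibroblast markers were lower. In the same mice 3 of 8 smooth muscle markers (Cnn1, Tagln and Des) rose, where 4.33% of all genes tested rose. All 8 were higher there, and their summed level was 475750 to 661560 normalized counts with Ang II and 344430 to 460990 with saline. In IKKβ-/- mice 7 of the 8 were lower with Ang II, with a median of -0.21, and none passed. Their summed level there was 318150 to 566890 with Ang II and 445260 to 608400 with saline, the highest in X2409. The summed level of the 9 endothelial markers in IKKβ+/+ mice was 13500 to 26585 normalized counts with Ang II and 22769 to 38469 with saline. The summed endothelial level in IKKβ-/- mice was 9145 to 29656 with Ang II and 14301 to 30391 with saline. Of the 9 endothelial markers there, 6 were lower and 3 higher with Ang II, with a median of -0.25. Kdr was the 1 that passed, higher with Ang II, where 2.59% of all genes tested rose. Leukocyte markers gave no call with Ang II in either genotype (limma, none of 9 tested at an unadjusted p under 0.05). Their summed level over 13 genes was 6808 to 9105 with saline and 5519 to 8172 with Ang II in IKKβ+/+ mice, and 3872 to 5458 and 3048 to 10291 in IKKβ-/- mice. In addition, 6 of 7 adipocyte markers tested rose in IKKβ-/- mice, where 2.59% of all genes tested rose. The summed level of the adipocyte markers there was 1115 to 4532 with saline and 3112 to 39178 with Ang II. In IKKβ+/+ mice none of the 7 passed and the summed levels were 999 to 13831 and 3188 to 8617. The skeletal muscle gene Ckm, 1 of 4 tested, rose by 2.93 ± 0.41 (SE, limma adjusted p = 0.000988) in IKKβ+/+ mice, where 4.33% of all genes tested rose. Of the 4, 3 were higher and 1 lower there. The summed level of 6 skeletal muscle markers in these mice was 158 to 486 with Ang II and 52.6 to 182 with saline. The Schwann cell gene Sox10 rose by 1.74 ± 0.55 (SE, limma adjusted p = 0.0971) in IKKβ-/- mice, where 2.59% of all genes tested rose. It was the 1 called of 4 Schwann cell and neuron markers tested, and all 4 were higher there. The summed level of 7 Schwann cell and neuron markers in these mice was 833 to 2166 with Ang II and 411 to 1380.0 with saline. In IKKβ+/+ mice this sum was 5226 in X2356 and 331 to 708 in the other Ang II-treated mice, and 220 to 790 with saline. The part of these cell types in the fall of the mitosis genes was not tested.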

How the data were processed

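Suprarenal aortas of 19 mice were profiled by poly(A)-selected, stranded, single-end RNA sequencing. Per the labels and the study's methods, the authors trimmed reads with Trimmomatic 0.35, aligned and counted them per gene with STAR 2.7.1a on GRCm38 and divided the counts by DESeq2 1.30.1 size factors. What the authors deposited is this depth-scaled signal, a normalized count per gene and mouse. Whole reads were recovered from their steps in 100% of values (tolerance 0.05 read).

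The main test was limma 3.58.1 in R 4.3.3 on log2(normalized count + 1), with the 4 groups as means in 1 fit (lmFit, eBayes with trend) over 14845 of 20408 genes, those that reached 10 normalized counts in 4 or more mice. A gene was called at a Benjamini-Hochberg adjusted p under 0.1 over all genes tested and a fold change above 1.2. Fold changes are on that log2 scale, which understates changes of low genes. "Averaged" is the mean of the Ang II effects of both genotypes, and the difference between them is their interaction. Mice are separate animals, so p-values measure the spread between mice, which also limits the precision of each value. No 2 mice agreed within sampling noise. Alternatives were a pseudocount of 4, no filter, only the groups compared, edgeR 4.0.16 and DESeq2 1.42.0 on recovered reads, TMM scaling, array weights, other thresholds and leaving out each mouse.

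The 43 genes, their roles, the other gene lists (other mitosis, replication, regulators of the cell cycle, and markers of smooth muscle, endothelium, fibroblasts, leukocytes, neutrophils, erythroid cells, adipocytes, Schwann cells and neurons, adrenal cortex, skeletal muscle and mesothelium) and the tests were chosen with earlier results of these data known. Values in every mouse are given for Mki67, Top2a, Ccnb1 and Cdk1 and, of the genes past the threshold in any comparison, the 10 with the smallest p. Where fewer than 3 passed, the 3 genes with the smallest p are named, and of each other list at most 5 that passed per comparison, 1 of which is not reported here. Promoters are shown for 5 of the genes given in full that had a RefSeq entry. Gene positions are from Gencode M21.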

Additional observations from a re-analysis of the deposited data

Results flagged for a closer look

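Among 56 groups of 4 or 5 mice examined for the genes given in full and for the mean level of the 43 genes, 5 had 1 mouse separated from the rest of its group by Dixon's criterion, which chance alone gives in about 1 of 20 groups. X2409, a saline-infused IKKβ-/- mouse, had a mean log2(normalized count + 1) over the 43 genes of 3.8185, where the other 3 lay at 5.1861 to 5.3052. X2380, an Ang II-treated IKKβ-/- mouse, was high for Ccnb1, at 4.6208 normalized counts with the other 4 mice at 0. It was also high for Cenpe, at 31.422 against 2.5707 to 8.4525. In Ang II-treated IKKβ+/+ mice X2352 was high for Nusap1, at 32.021 against 8.7757 to 14.995. In saline-infused IKKβ+/+ mice X2373 was high for Cenpe, at 72.252 against 43.039 to 49.371.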

How the results depend on the processing

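The medians of the 43 genes kept their direction in all alternatives run, from -1.25 to -0.84 for Ang II in IKKβ+/+ mice, -1.36 to -0.80 in IKKβ-/- mice and -1.20 to -0.88 averaged. The number of genes called moved more. For IKKβ+/+ mice it was 7 in the report, 4 with no filter on low values, 20 with only the groups compared in the fit, 18 with array weights, 1 at an adjusted p under 0.05 and 1 to 6 leaving out 1 mouse. For IKKβ-/- mice it was 11 in the report, 2 with only the groups compared, 4 at an adjusted p under 0.05 and 3 to 18 leaving out 1 mouse. Averaged over the genotypes, 24 were called in the report and 20 to 29 in the alternatives. Between the genotypes with saline the count was 1, with array weights 2 (Smc4 and Ndc80), at an adjusted p under 0.05 0, and leaving out 1 mouse 0 to 2. Between the genotypes with Ang II the count was 0, with DESeq2 4 and leaving out 1 mouse 0 to 4. The difference of the Ang II effect gave 0 calls in all 27 alternatives. Calls over all genes tested shifted too. For Ang II in IKKβ+/+ mice there were 1286 in the report, 1022 with no filter, 1904 with only the groups compared and 2074 with array weights. For IKKβ-/- mice there were 785 in the report and 295 with only the groups compared. The causes of these shifts were not tested.

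Over the genes named by their p in each comparison, 992 of 1171 gene-by-alternative results stayed on the same side of the threshold with the same direction, 171 no longer passed, 8 newly passed and 0 changed sign. Mki67 passed in all alternatives run for Ang II in IKKβ+/+ and in IKKβ-/- mice, and Cenpf in all run for IKKβ-/- mice. With a pseudocount of 4, Kif2c was at -1.35 in place of -2.39 in IKKβ+/+ mice and Ccnb1 at -1.24 in place of -2.44 in IKKβ-/- mice, which shows how far the size of a change rests on the pseudocount where reads are few. No scaling moved the median of all genes by over 0.05. No paired analysis was possible because each mouse number belongs to 1 mouse and no number is shared between groups.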
